A study of Homo sapiens with 6 samples.

Results

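Dynactin is the multisubunit partner of cytoplasmic dynein, the motor that carries cargo toward the minus ends of microtubules. The messages of 8 dynactin subunit genes, DCTN1, DCTN2, DCTN3, DCTN4, DCTN5, DCTN6, ACTR1A and ACTR10, were compared between FGL1-OE and NC TE1 cells, and so were their isoforms. The genes were taken by symbol. All 8 were among the 12180 genes of the deposited gene table, and 30 of the 33090 entries of the transcript table belonged to them. TE1 (TE-1 in the labels) is a cell line from a human esophageal squamous cell carcinoma (ESCC). The 3 FGL1-OE libraries came from cells stably overexpressing FGL1, a secreted fibrinogen-like protein, after lentiviral infection. The labels list the cells of the 3 control libraries as WT, while in the study's methods the controls (NC) carry nonsense sequence. Stable lines with altered FGL1 were selected with puromycin, and whether a line was a single clone, or whether the sequenced controls went through the same selection, is not given in the sources used here.

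Dynactin is built around a short filament of the actin-related protein Arp1, encoded by ACTR1A. A shoulder of p150Glued (DCTN1), dynamitin (DCTN2) and p24 (DCTN3) sits on the filament, and p150Glued extends from it as an arm that binds dynein and, through the CAP-Gly domain near its N-terminus, microtubules. One end of the filament, the pointed end, is capped by Arp11 (ACTR10), p62 (DCTN4), p25 (DCTN5) and p27 (DCTN6), a module known for its part in the choice of cargo. The complex is used by most cell types, in mitosis as well as in transport.

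Values are FPKM, that is, fragments scaled for feature length and sequencing depth. Groups were compared with limma on log2(FPKM + 1), a scale that understates the change of low features, with Benjamini-Hochberg adjustment over all 12017 genes or all 30330 transcripts that averaged 0.5 FPKM or more. Library depth is unknown, since FPKM were the per-library values used. In bulk RNA, a lower level in each cell and fewer cells with the message cannot be told apart. Nothing in the labels says that the 3 libraries of a group came from separate cultures, and the p-values measure only the spread between these libraries. An exact 0 in such a table can be a failed estimate, and it is given here only as a listed value. FGL1 had 0.0202, 0 and 0.106 FPKM in NC 1, NC 2 and NC 3, against 33.5, 39.3 and 39.9 FPKM in FGL1-OE 1, 2 and 3 (log2 fold change 5.21, standard error 0.15, limma adjusted p = 1.29e-05). Of 8 squamous markers, 6 were listed, KRT14 and SOX2 were not, and TP63 stayed at or below 0.779 FPKM in the NC libraries. Their summed level was 274 to 313 FPKM in NC and 372 to 390 FPKM in FGL1-OE. The most abundant of them, KRT6A, had 108 to 160 FPKM in NC and 183 to 197 FPKM in FGL1-OE. The groups did not overlap for KRT6A and CDH1, which held for 7.15% of all genes. They overlapped for KRT5, KRT17, EPCAM and TP63, so the sum does not describe each marker. KRT6A and CDH1 had a limma unadjusted p of 0.0241 and 0.0263, where 2.01% of all genes had one under 0.05, and neither passed the adjustment. Fibroblast markers (3 of 6 listed) summed to 2.29 to 8.11 FPKM in NC and 3.24 to 8.27 FPKM in FGL1-OE, CD68 was the only leukocyte marker of 4 listed, and none of 3 endothelial markers was listed. The part of these markers in the results was not tested.

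The 1 transcript call among the subunits concerned DCTN4, for which the table lists 2 transcripts that begin at different first exons. In GENCODE v29 on GRCh38, ENST00000447998, called here the long isoform, and ENST00000424236, called here the short isoform, have 13 exons each, on the minus strand of chromosome 5, and 11 of the exons have the same bounds. The first exon of the long isoform is 251 bases long and holds the start codon. The first exon of the short isoform starts 589 bases further downstream, is 405 bases long and holds no coding sequence, so that the reading frame opens in exon 2 at an inner start codon. The last exon of the short isoform also ends 308 bases earlier. The coding sequences have 460 codons in the long isoform and 403 in the short isoform. The stretch that separates them is shown because most of it is coding in only 1 of the 2 messages. Its exon 1 part (135 bases) is absent from the first exon of the short isoform, while its exon 2 part (39 bases) is in both messages and, up to the inner start codon, untranslated in the short one. It runs from the first start codon at chr5:150758859-150758993 into exon 2 at chr5:150756449-150756487 (GRCh38, minus strand, 5′ to 3′), and the capitals mark the start codon of the long isoform and that of the short isoform.

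ENST00000447998 coding start: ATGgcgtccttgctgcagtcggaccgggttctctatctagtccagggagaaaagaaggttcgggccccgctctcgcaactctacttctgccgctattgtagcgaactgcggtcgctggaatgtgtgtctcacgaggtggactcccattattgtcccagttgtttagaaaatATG

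The first 171 bases, or 57 codons, of this run are coding in the long isoform and not in the short isoform. No word of 31 bases of either transcript occurs in a transcript of another gene of the annotation, and 7.71% of those of the long isoform and 5.72% of those of the short isoform occur in no other DCTN4 transcript. The annotation holds 15 DCTN4 transcripts, of which these are the 2 listed.

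**Figure D1:**
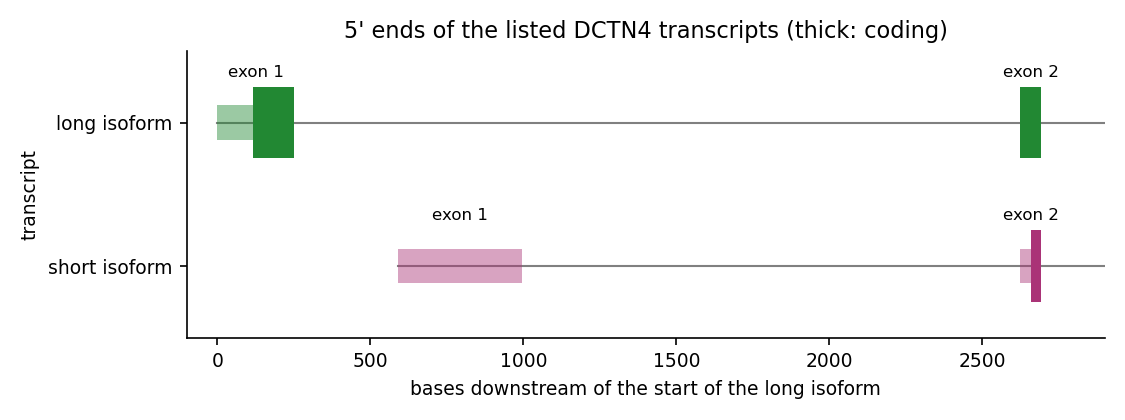
Exons 1 and 2 of the listed DCTN4 transcripts, to scale in bases downstream of the start of the long isoform on the x axis, with coding parts as thick boxes, noncoding parts as thin boxes and introns as lines. The coding sequence opens in exon 1 of the long isoform and in exon 2 of the short isoform, whose own first exon starts at 589 bases.

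In the listed estimates, the short isoform was at or near 0 in the NC libraries and was the higher of the 2 listed DCTN4 transcripts in the FGL1-OE libraries. It had 0, 0.0268 and 0 FPKM in NC 1, 2 and 3, against 13.0, 14.4 and 15.8 FPKM in FGL1-OE 1, 2 and 3. With a mean of 0.00892 FPKM in NC, it passed the filter of 0.5 FPKM only through the FGL1-OE libraries. Its small spread in NC rests on listed values at or near 0, which can be failed estimates. It rose by a log2 fold change of 3.93 (standard error 0.22, limma adjusted p = 0.0166). This was the only call among the 28 subunit transcripts tested, against 0.0165% of all transcripts tested (5 of 30330). The adjusted p was between 0.00911 (ordinary linear model) and 0.540 (the replicate number as a block) over the alternatives, and the log2 fold change was 7.06 with a pseudocount of 0.1. The call was lost with that block, without NC 1 or NC 3 (limma adjusted p = 0.0504 and 0.0864) and without FGL1-OE 1, 2 or 3 (adjusted p = 0.0717, 0.0994 and 0.123). In these fits the filter on low values was reapplied to the libraries left, and with the filter of all 6 libraries kept, a form added after that result was seen, the adjusted p without NC 1 was 0.0493.

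The long isoform showed the opposite order. It had 4.92, 18.6 and 12.3 FPKM in NC cells, against 0.776, 0.996 and 0.294 FPKM in FGL1-OE cells, so that every NC library lay above every FGL1-OE library. The percentage of all transcripts with such a separation of their FPKM was not counted. The log2 fold change was -2.80 (standard error 0.48), which did not pass the adjustment (limma unadjusted p = 0.000939, adjusted p = 0.471). The NC values themselves spanned a wide range, lowest in NC 1 and highest in NC 2.

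As a share of the summed FPKM of both transcripts, the short isoform made up 0%, 0.144% and 0% in the NC libraries and 94.4%, 93.5% and 98.2% in the FGL1-OE libraries. The difference of the group means was 95.3 percentage points (p = 0.1 in a two-sided exact permutation test, and 3 against 3 libraries cannot go lower). A share compares isoforms within a library and does not depend on the scaling of that library. Of the 30 subunit transcripts, these 2 were the only ones whose shares did not overlap between the groups. The 2 shares are complements, so this is 1 observation counted for both. Over 28929 transcripts of genes with at least 2 listed transcripts, without a filter on level, it held for 9.31%. The count of 2 of 30 did not exceed that percentage. DCTN4 was also the only subunit gene whose top transcript was 1 isoform in all NC libraries and another in all FGL1-OE libraries, which held for 0.511% of 8017 genes with at least 2 listed transcripts.

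The level of the DCTN4 gene (chr5:150088002-150138671, GRCh37) did not separate the groups. It had 3.56, 12.4 and 8.16 FPKM in NC 1, 2 and 3, against 9.18, 10.1 and 10.7 FPKM in FGL1-OE 1, 2 and 3. The FGL1-OE values lay inside the NC range (log2 fold change 0.41, standard error 0.36, limma adjusted p = 1.00). Without NC 1 the log2 fold change was -0.016 and without NC 2 it was 0.76. In the gene table, DCTN4 stood at 0.655 to 0.723 of the sum of its listed transcripts in the 6 libraries, near the median of 0.740 to 0.747 over all genes.

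**Figure D2:**
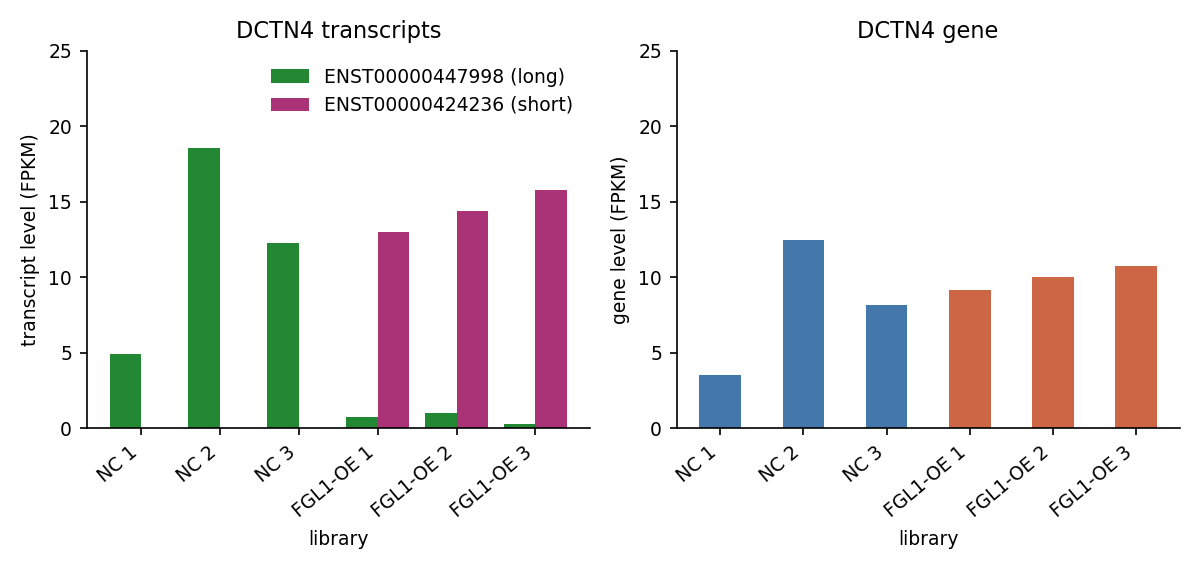
Levels in FPKM of the listed DCTN4 transcripts on the left and of the DCTN4 gene on the right, 1 bar per library and feature, with NC in blue and FGL1-OE in orange on the right. The long isoform was the higher transcript in the 3 NC libraries and the short isoform in the 3 FGL1-OE libraries, while the gene values of FGL1-OE lay between the lowest and the highest NC value.

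At the gene level, no subunit passed the adjustment. Of the 8 genes, 0 had a limma adjusted p under 0.05, against 0.00832% of all genes (1 of 12017, FGL1), and the ordinary linear model also gave 0. ACTR1A was the 1 gene with an unadjusted p under 0.05, against 2.01% of all genes, and it kept such a p without NC 1 or FGL1-OE 1 and lost it in the other 4 fits with 1 library left out. Without NC 2 there were 3 such subunit genes (DCTN1, DCTN4 and DCTN6), in a fit where 21.8% of all genes had an unadjusted p under 0.05, without FGL1-OE 2 there was 1 (DCTN5), and without NC 3 or FGL1-OE 3 there was none. For none of the 8 did the FPKM of the groups fail to overlap, against 7.15% of all genes. The log2 fold changes were positive for 6 genes and negative for 2, with a median of 0.20 beside 0.016 over all genes tested. That median was 0.0016 without NC 1 and 0.42 without NC 2.

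**Figure D3:**
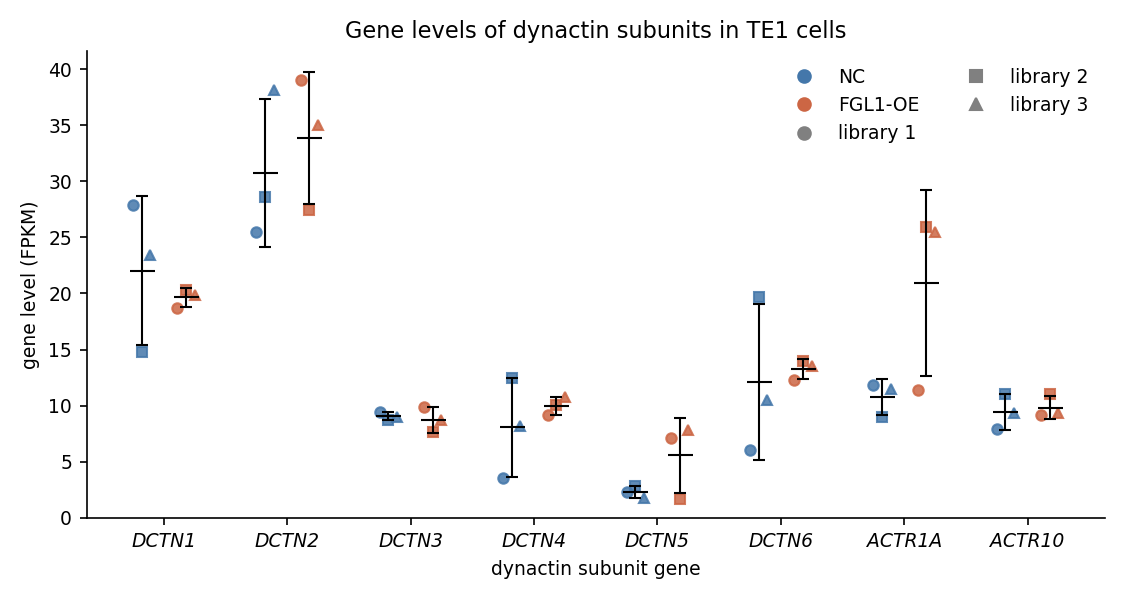
Gene level in FPKM of the 8 dynactin subunits on the y axis, with 1 point per library, coloured by group and shaped by library number, and black bars for the mean ± SD (n = 3). The groups overlap for every subunit. The NC libraries lie further apart than the FGL1-OE libraries for DCTN1, DCTN4 and DCTN6, and the FGL1-OE libraries lie further apart for DCTN3, ACTR1A and DCTN5.

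Among the shoulder and arm subunits, DCTN2 was the most abundant. DCTN2 (chr12:57923885-57941114, on GRCh37 as for all genes below) had 25.5, 28.6 and 38.1 FPKM in NC, against 39.0, 27.4 and 35.0 FPKM in FGL1-OE (log2 fold change 0.14, standard error 0.21, limma adjusted p = 1.00). DCTN1 (chr2:74588281-74619214) had 27.9, 14.8 and 23.4 FPKM in NC, against 18.7, 20.3 and 19.9 FPKM in FGL1-OE, with a log2 fold change of -0.11 (standard error 0.23). Its FGL1-OE libraries lay close together inside the NC range, and the log2 fold change was 0.072 without NC 1. DCTN3 (chr9:34613542-34620520) had the narrowest range of the 8 genes, with 9.45, 8.74 and 8.98 FPKM in NC and 9.88, 7.63 and 8.68 FPKM in FGL1-OE (log2 fold change -0.054, standard error 0.15).

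ACTR1A, the gene of the filament subunit, had a high value in 2 of the 3 FGL1-OE libraries. ACTR1A (chr10:104221638-104262468) had 11.8, 8.97 and 11.5 FPKM in NC, against 11.4, 25.9 and 25.5 FPKM in FGL1-OE. FGL1-OE 1 stayed within the NC range. The log2 fold change was 0.82 (standard error 0.31, limma unadjusted p = 0.0315, adjusted p = 1.00), and the exact permutation p was 0.3. It ranged from 0.63 without FGL1-OE 2 (limma unadjusted p = 0.110) to 1.19 without FGL1-OE 1.

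Among the pointed-end subunits, DCTN5 had the lowest mean level and, as a ratio of its highest to its lowest library (4.57), the widest range. DCTN5 (chr16:23652713-23688776) had 2.27, 2.81 and 1.77 FPKM in NC, against 7.15, 1.71 and 7.81 FPKM in FGL1-OE. In these gene values FGL1-OE 2 was the lowest of the 6 libraries and the other FGL1-OE libraries the highest (log2 fold change 0.83, standard error 0.43, limma unadjusted p = 0.0912). The gene value was 0.846, 0.279 and 0.813 of the sum of the listed DCTN5 transcripts in FGL1-OE 1, 2 and 3. In NC 1, 2 and 3 it was 0.663, 0.637 and 0.402 of that sum. The gene values and the transcript sums thus do not order the libraries alike, and the cause was not tested. The log2 fold change was 0.53 without FGL1-OE 3 (limma unadjusted p = 0.270), 0.59 without FGL1-OE 1 (unadjusted p = 0.263) and 1.38 without FGL1-OE 2 (unadjusted p = 0.000419, adjusted p = 1.00). DCTN6 (chr8:30013813-30041156) had 6.05, 19.7 and 10.5 FPKM in NC, against 12.3, 14.0 and 13.5 FPKM in FGL1-OE, the same order of NC libraries as for DCTN4. Its log2 fold change was 0.26 (standard error 0.35), and -0.11 without NC 1. ACTR10 (chr14:58666798-58702354) had 7.88, 11.1 and 9.36 FPKM in NC, against 9.13, 11.0 and 9.35 FPKM in FGL1-OE (log2 fold change 0.060, standard error 0.17).

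**Figure D4:**
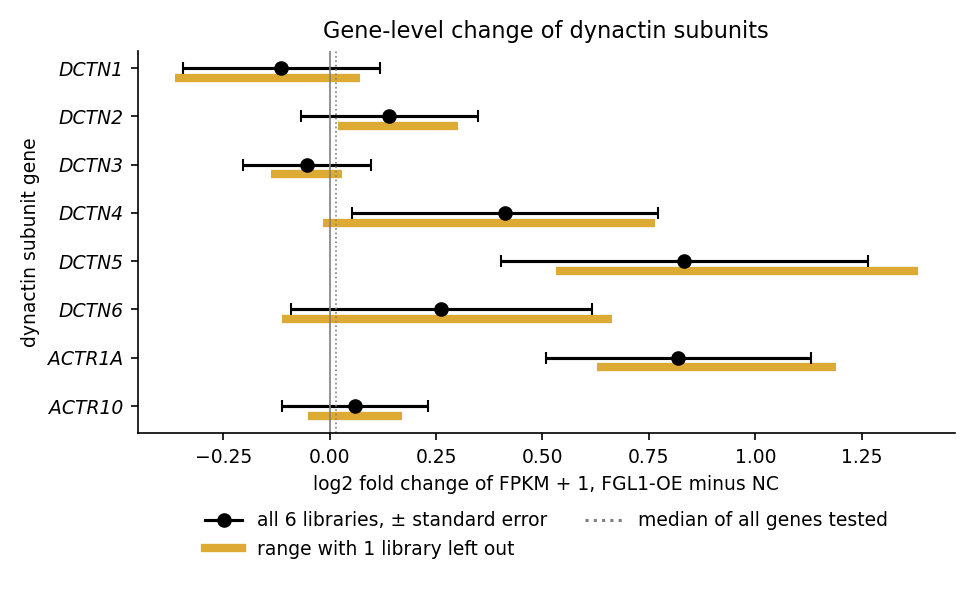
Log2 fold change of FPKM + 1 (FGL1-OE minus NC) on the x axis for the 8 subunit genes, with points and bars for the estimate ± standard error from 6 libraries, yellow bars for the range with 1 library left out, and a dotted line at the median of all genes tested. The yellow bars of DCTN1, DCTN3, DCTN4, DCTN6 and ACTR10 cross 0, and those of DCTN2, DCTN5 and ACTR1A do not.

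By mean level, the order in NC was DCTN2 (30.7 ± 6.60 FPKM, SD, n = 3), DCTN1 (22.0 ± 6.66), DCTN6 (12.1 ± 6.95), ACTR1A (10.8 ± 1.57), ACTR10 (9.44 ± 1.60), DCTN3 (9.06 ± 0.360), DCTN4 (8.05 ± 4.44) and DCTN5 (2.28 ± 0.520). Of neighbours in that order, the ranges of DCTN4 and DCTN5 alone did not overlap. In FGL1-OE the order was DCTN2 (33.8 ± 5.89 FPKM), ACTR1A (20.9 ± 8.28), DCTN1 (19.6 ± 0.838), DCTN6 (13.3 ± 0.883), DCTN4 (9.99 ± 0.782), ACTR10 (9.82 ± 1.02), DCTN3 (8.73 ± 1.13) and DCTN5 (5.56 ± 3.35). There DCTN2 and ACTR1A, DCTN1 and DCTN6, and DCTN6 and DCTN4 did not overlap.

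The spread between libraries was not the same in both groups. Over all genes the median SD of log2(FPKM + 1) was 0.308 in NC and 0.121 in FGL1-OE. DCTN4 had an SD of 0.791 in NC and 0.103 in FGL1-OE, and DCTN6 of 0.777 and 0.0907. DCTN3, DCTN5 and ACTR1A had the wider spread in FGL1-OE, at 0.0513 in NC and 0.167 in FGL1-OE for DCTN3, 0.230 and 0.951 for DCTN5 and 0.201 and 0.642 for ACTR1A. DCTN4, DCTN6 and ACTR10 were each lowest in NC 1 and highest in NC 2, and DCTN1 was highest in NC 1 and lowest in NC 2.

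No other subunit transcript passed the adjustment. Of the 28 transcripts tested, 3 had an unadjusted p under 0.05 and a change of at least 2-fold, against 2.24% of all transcripts, and these were both DCTN4 transcripts and ENST00000369905 of ACTR1A. The median log2 fold change of the 28 was 0.11, beside 0.017 over all transcripts tested. The same transcript was on top in all 6 libraries for DCTN6, ACTR1A and ACTR10, against 41.8% of genes with at least 2 listed transcripts. For DCTN1, DCTN2, DCTN3 and DCTN5, the top transcript varied within a group.

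The ACTR1A transcript ENST00000369905, with 376 codons, had 9.79, 11.9 and 11.2 FPKM in NC, against 14.6, 40.4 and 36.6 FPKM in FGL1-OE. The groups did not overlap (log2 fold change 1.28, standard error 0.42, limma unadjusted p = 0.0204, adjusted p = 1.00). How often transcript levels failed to overlap over all transcripts was not counted. The unadjusted p was above 0.05 without NC 1 (0.0572), FGL1-OE 2 (0.0688) or FGL1-OE 3 (0.0686) in limma, and without NC 3 it was 0.0493, or 0.0510 with the filter kept. The other ACTR1A transcript, ENST00000487599, with 332 codons, had 8.87, 1.57 and 5.20 FPKM in NC, against 2.28, 1.07 and 2.75 FPKM in FGL1-OE. The share of ENST00000369905 was 52.5%, 88.3% and 68.3% in NC and 86.5%, 97.4% and 93.0% in FGL1-OE, a difference of 22.6 percentage points with overlapping groups (exact permutation p = 0.2). The difference was 14.0 points without NC 1 and 32.0 without NC 2. Words of sequence found in no other annotated ACTR1A transcript made up 0.107% of ENST00000369905 and 1.04% of ENST00000487599. The levels and shares of both transcripts thus depend on how reads common to ACTR1A transcripts were divided.

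For DCTN1, the transcript ENST00000409240 was on top in 5 of 6 libraries. It had 47.7, 22.4 and 48.6 FPKM in NC, against 31.3, 8.93 and 20.7 FPKM in FGL1-OE (log2 fold change -1.01, standard error 0.53, limma unadjusted p = 0.105), which was -0.53 without FGL1-OE 2 and -1.39 without FGL1-OE 1 (limma unadjusted p = 0.0471). In FGL1-OE 2 it was replaced on top by ENST00000409438, listed at 37.1 FPKM there, at 0.147 FPKM in NC 1 and at 0 in the other 4 libraries. ENST00000409438 has 1139 codons against 1236 in ENST00000409240, and its coding sequence lacks the first 114 codons of ENST00000409240, at the end of the protein where the CAP-Gly domain lies. No word of 31 bases is found in ENST00000409438 alone among the annotated DCTN1 transcripts. ENST00000409567 made up 33.0% in FGL1-OE 3 and 0% in NC 2 and FGL1-OE 1. The share of ENST00000409240 was 80.4% to 93.0% in NC and 80.5%, 17.3% and 59.9% in FGL1-OE (exact permutation p = 0.2). The difference of the group means was -32.2 percentage points, -14.6 without FGL1-OE 2 and -46.2 without FGL1-OE 1.

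DCTN2 had 2 major transcripts, ENST00000543672 (403 codons) and ENST00000548249 (401 codons), and 1 library of each group stood apart. The share of ENST00000543672 was 9.78%, 70.1% and 83.8% in NC and 82.3%, 16.0% and 79.2% in FGL1-OE. The share of ENST00000548249 was 87.6%, 22.0% and 11.1% in NC and 14.2%, 77.2% and 15.7% in FGL1-OE. NC 1 and FGL1-OE 2 thus had the reverse of the order in the other 4 libraries.

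ENST00000259632 (186 codons) held 36.2%, 84.5% and 61.5% of the DCTN3 sum in NC and 70.1%, 75.2% and 79.4% in FGL1-OE. NC 1 was the exception, with ENST00000378916 (158 codons) at 50.4%. ENST00000300087 (182 codons) held 72.5%, 65.5% and 40.7% of the DCTN5 sum in NC and 94.7%, 23.7% and 92.7% in FGL1-OE. FGL1-OE 2 was the exception, with ENST00000563998 (152 codons) at 50.0%. That is also the library in which the gene value of DCTN5 was lowest, though the sum of its listed transcripts was not.

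ENST00000221114 held 84.6% to 97.7% of the DCTN6 sum in the 6 libraries, and ENST00000254286 held 89.0% to 100% of the ACTR10 sum. Their FPKM followed no group order. ENST00000221114 had 9.58, 32.5 and 15.8 FPKM in NC, against 19.6, 19.9 and 21.3 FPKM in FGL1-OE. ENST00000254286 had 8.12, 7.81 and 6.73 FPKM in NC, against 7.22, 14.7 and 9.89 FPKM in FGL1-OE. Of the subunit transcripts not described singly, ENST00000554642 of ACTR10 and ENST00000568589 of DCTN5 were under the filter, and none of those tested had an unadjusted p under 0.05 in limma.

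**Figure D5:**
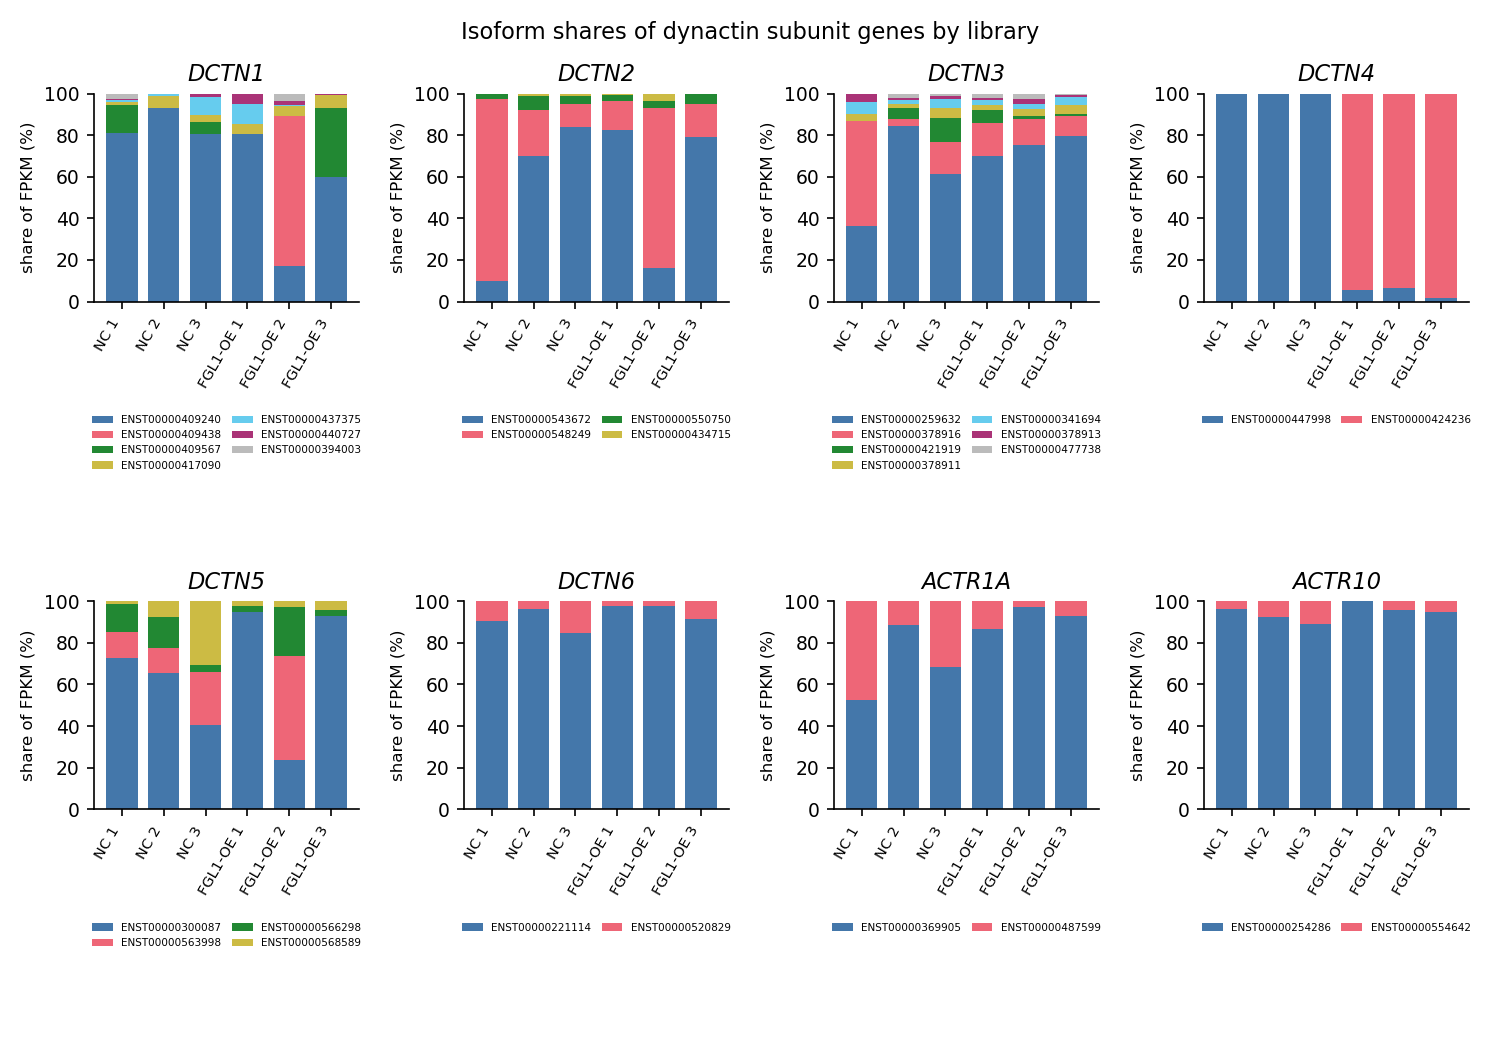
Share in percent of the summed FPKM of the listed transcripts of each gene, 1 stacked bar per library and 1 panel per subunit, with each panel's colours named under it. DCTN4 changes colour between the 3 NC and the 3 FGL1-OE bars, while DCTN2 changes in NC 1 and FGL1-OE 2, DCTN1 and DCTN5 in FGL1-OE 2, and DCTN3 in NC 1.

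Some of these genes share sequence with others. Of the words of 31 bases of a listed transcript, up to 31.6% in DCTN5, 29.6% in DCTN6, 15.4% in DCTN1, 4.90% in ACTR10 and 2.34% in ACTR1A also occur in a transcript of another gene of the annotation, and 0% in DCTN2, DCTN3 and DCTN4. How the authors' counting divided such reads is not given in the sources used here, and the values of DCTN5, DCTN6 and DCTN1 are uncertain to that extent. Isoform shares depend also on how reads common to transcripts of the same gene were divided. Words found in no other transcript of the gene made up 0% of ENST00000259632 of DCTN3 and 1.70% of ENST00000543672 of DCTN2. They made up 5.72% and 7.71% of the DCTN4 transcripts and 69.7% of ENST00000300087 of DCTN5. The shares of all 8 genes are uncertain in this way too.

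No partner gene of dynactin passed the test. Of 49 genes on 5 lists, 48 were listed and tested, and 0 had an unadjusted p under 0.05 in limma, against 2.01% of all genes. The ordinary linear model gave 1, against 3.11% of all genes, and limma without NC 2 gave 8, against 21.8% of all genes. The log2 fold change was positive for 28 of the 48. The median over the 48 was 0.031, beside 0.016 over all genes tested, and it was -0.042 without NC 1 and -0.0030 without FGL1-OE 2. Counts of positive genes, here and by list below, give the sign alone, and the percentage over all genes was not counted. The groups did not overlap for 2 of the 48, against 7.15% of all genes. DYNC1I1, a dynein intermediate chain, had 2.34, 2.77 and 2.54 FPKM in NC, against 3.29, 2.91 and 3.19 FPKM in FGL1-OE. DYNLL2, a light chain, had 23.8, 18.3 and 19.2 FPKM in NC, against 18.2, 18.1 and 17.6 FPKM in FGL1-OE. Both were named after their values were seen.

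Of the 5 other dynactin subunits, which include the capping proteins, 2 had a positive log2 fold change. ACTB, whose protein beta-actin is part of the filament, was the most abundant at 625, 520 and 549 FPKM in NC and 685, 525 and 536 FPKM in FGL1-OE. Of 10 listed chains of cytoplasmic dynein 1, 8 were positive, and the heavy chain DYNC1H1 led with 53.7, 44.1 and 60.8 FPKM in NC and 50.6, 57.5 and 56.7 FPKM in FGL1-OE. Of 16 adaptors that link dynein and dynactin to cargo, 7 were positive, and BICD2 led with 9.72, 7.90 and 9.42 FPKM in NC and 6.93, 8.86 and 8.52 FPKM in FGL1-OE. Of 8 dynein regulators, 6 were positive, and NUDC led with 84.3, 46.4 and 78.1 FPKM in NC and 72.1, 66.9 and 65.5 FPKM in FGL1-OE. Of 9 partners at microtubule plus ends, 5 were positive, and MAPRE1, which encodes the end-binding protein EB1, led with 77.3, 111 and 95.4 FPKM in NC and 98.5, 106 and 108 FPKM in FGL1-OE.

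The genes whose log2(FPKM + 1) was most like that of DCTN4 over the 6 libraries were PLBD1 (Pearson r = 1.00), XPO7 (r = 0.998) and DPY19L1 (r = 0.998), out of 4000 genes with a mean of at least 10 FPKM. For DCTN1 they were CEP72 (r = 0.995), CEP131 (r = 0.994) and NME1-NME2 (r = 0.993) out of 3999. These are descriptions over 6 libraries, whose largest contrast for both genes was that between NC 1 and NC 2.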

How the data were processed

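RNA of TE1 cells (3 NC and 3 FGL1-OE libraries) was enriched with oligo(dT) beads and sequenced from stranded libraries. The authors deposited FPKM values per library for protein-coding genes and transcripts. The submitters' processing notes list StringTie and GRCh37, while the aligner and annotation are not given in the sources used here. The tables also hold the authors' own comparison (fold changes, p-values and group means), which was not used.

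Features averaging 0.5 FPKM or more over 6 libraries were compared on log2(FPKM + 1) with R 4.3.3 and the lmFit and eBayes functions of limma 3.58.1, without covariates, at a threshold of 0.05. Isoform shares are percentages of the summed FPKM of a gene's listed transcripts, compared by exact two-sided permutation tests. Transcript structure and sequence were read from GENCODE release 29 (GRCh38) with Python 3.11.15, gene coordinates are those of the tables (GRCh37), and shared sequence was counted in words of 31 bases. The code was tested on simulated data. Named were the 8 subunits with their transcripts, FGL1, the most abundant gene of each partner list with any of unadjusted p under 0.05, and the 3 genes most like DCTN1 and DCTN4. Members and lists were chosen with earlier results of these data known. Alternatives were no filter or one at 1 FPKM, a pseudocount of 0.1, a common sum, quantile normalization, a replicate block, no moderation of variances and leaving out each library with the filter reapplied to those left. The same with the filter of all 6 libraries kept was added after seeing the data.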

Additional observations from a re-analysis of the deposited data

How the results depend on the processing

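The adjusted-p count of subunit genes was 0 in all 19 alternative fits. The count of subunit transcripts with an adjusted p under 0.05 was 1 with 6 libraries, 0 with a replicate block, and between 0 and 1 with 1 library left out. The call rests on the short DCTN4 isoform, whose adjusted p was 0.540 with the replicate block, 0.0504 without NC 1, 0.0215 without NC 2, 0.0864 without NC 3, and 0.0717, 0.0994 and 0.123 without FGL1-OE 1, 2 and 3. With the filter of all 6 libraries kept, which was added after these results were seen, it was 0.0493, 0.0215 and 0.0943 without NC 1, 2 and 3 and 0.0697, 0.111 and 0.147 without FGL1-OE 1, 2 and 3, so that the side of the threshold without NC 1 depends on the filter. Its log2 fold change was between 3.86 and 3.99 over the libraries left out. The change of its share was between 93.9 and 96.2 percentage points. Every fit with 1 library left out has fewer degrees of freedom, and why the call was kept without NC 2 and lost in others was not tested. The deviations of same-numbered NC and FGL1-OE libraries from their group means had correlations of 0.345, 0.282 and -0.061. Those of differently numbered libraries lay between -0.370 and 0.136. These values do not decide whether the numbers pair the libraries.

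With 1 library left out, log2 fold changes turned sign for DCTN1 (0.072 without NC 1, range -0.36 to 0.072), DCTN3 (0.030 without FGL1-OE 2, range -0.14 to 0.030), DCTN4 (-0.016 without NC 1, range -0.016 to 0.76), DCTN6 (-0.11 without NC 1, range -0.11 to 0.66), ACTR10 (-0.051 without NC 1 and -0.016 without FGL1-OE 2, highest 0.17) and the partner median (-0.042 without NC 1 and -0.0030 without FGL1-OE 2, highest 0.096), and the cause was not tested. These values were the same with the filter kept. The median of the 8 subunit genes was between 0.0016 and 0.42. The count of subunit genes with an unadjusted p under 0.05 was 1 with 6 libraries, 3 without NC 2, and 0 without NC 3, without FGL1-OE 3 or in the ordinary linear model. FPKM without counts gives no limit from depth.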
